A study of Mus musculus with 5 samples.

Results

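Leukocytes are held in and released from bone marrow through a small set of G protein-coupled receptors. The 8 receptor genes described here, Cxcr4, Cxcr2, Ccr2, Cx3cr1, Ccr1, Ccrl2, S1pr1 and S1pr4, were taken by symbol from expression tables that list 23234 genes, and all 8 were present in each of the 5 tables. The receptor CXCR4 binds CXCL12, which is made by marrow stromal cells, and holds neutrophils, monocytes and progenitors in the marrow. CXCR2 draws mature neutrophils out along CXCL1 and CXCL2, CCR2 is needed for Ly6Chi monocytes to leave in response to CCL2 and CCL7, and CX3CR1 is the fractalkine receptor, most abundant on Ly6Clow monocytes. Sphingosine 1-phosphate receptors read the lipid gradient between tissue and blood, which for S1PR1 is best known from lymphocyte exit.

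Populations sorted from bone marrow were sequenced, 5 in all, with 1 library each. All of them came from C57BL/6 mice of genotype +/Ym1Venus, aged 7 weeks, in which the fluorescent protein Venus reports expression of Ym1 (Chi3l3). Ym1+ monocytes were Ly6C+ CD115+ Venus+ and Ym1- monocytes were Ly6C+ CD115+ Venus-, both taken 48 h after 100 µg of lipopolysaccharide (LPS) per mouse was given intravenously, and naïve monocytes were Ly6C+ CD115+ Venus- cells from untreated mice. Neutrophils were sorted as Ly6G+ from LPS-treated and from untreated mice. The treatment text attached to every sample describes the LPS injection, while the separate treatment entry of both naïve samples reads as untreated, and that entry was followed. Because there is no replicate, no difference has a replicate check and no p-value is given. The number of mice pooled for a library was not found in the labels or the methods.

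Levels are in FPKM, fragments normalised to transcript length and to the number mapped. Differences are between log2(FPKM + 1) values, which understates the change of low genes, and a gene is called at a difference of 2-fold or more when its FPKM reaches 1 in 1 or both libraries. Depth was estimated relative to the Ym1+ library from the most frequent ratio between low FPKM values. It was 44.7%, 62.8%, 80.9% and 97.2% of that of the Ym1+ library for the Ym1-, naïve monocyte, LPS neutrophil and naïve neutrophil libraries. With those depths an FPKM of 10 on a transcript of 2 kb stood for 85.7 to 192 fragments. Counting intervals below are 95% intervals on the fragments so estimated. They cover counting error only, not the spread between mice or sorts, and are rough because transcript lengths came from another annotation. Markers separated the monocyte and neutrophil gates to different degrees. F13a1, a monocyte coagulation factor gene, was at 641 to 825 FPKM in the 3 monocyte libraries and at 3.87 and 10.7 in neutrophils, and Retnlg, a granulocyte gene, was at 5157 and 12795 in neutrophils and at 10.6 to 13.9 in monocytes. Some other markers separated them less. Ly6c2 was at 3029 to 3245 in monocytes and at 1377 and 1613 in neutrophils. Cd177 was at 1492 and 2399 in neutrophils and at 6.56 to 113 in monocytes. Ly6g was not among the symbols found. In sorted bulk populations, fewer cells that carry a transcript and less transcript per cell cannot be told apart.

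The promoters of the 4 receptors on which the results turn are shown first, because the retention receptor, the neutrophil receptor and the pair of monocyte receptors followed different patterns. Each sequence is the 250 bases before the start site in RefSeq on GRCm38.p6, 5′ to 3′ on the strand of the gene. The deposited tables were made on mm9 and hold no coordinates. Capitals mark matches on either strand to GAGGAA (PU.1), TTGCNNAA (C/EBP) or CACCC (KLF).

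Cxcr4, chr1:128592300-128592549, minus strand: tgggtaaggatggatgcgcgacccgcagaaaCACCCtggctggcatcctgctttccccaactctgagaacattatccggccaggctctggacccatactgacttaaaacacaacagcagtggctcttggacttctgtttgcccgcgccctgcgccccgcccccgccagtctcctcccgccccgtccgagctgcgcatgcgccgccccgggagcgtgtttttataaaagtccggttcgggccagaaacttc

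Cxcr2, chr1:74153744-74153993, plus strand: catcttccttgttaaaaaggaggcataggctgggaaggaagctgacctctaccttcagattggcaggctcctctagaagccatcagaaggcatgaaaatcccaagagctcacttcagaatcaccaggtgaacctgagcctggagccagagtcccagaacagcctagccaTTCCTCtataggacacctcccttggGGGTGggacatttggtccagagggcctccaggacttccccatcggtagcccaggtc

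Ccr2, chr9:124101933-124102182, plus strand: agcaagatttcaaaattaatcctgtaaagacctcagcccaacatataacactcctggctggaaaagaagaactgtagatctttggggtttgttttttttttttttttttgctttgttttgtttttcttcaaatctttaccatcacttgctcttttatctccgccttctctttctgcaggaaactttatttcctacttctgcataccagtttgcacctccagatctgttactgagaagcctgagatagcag

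Cx3cr1, chr9:120068297-120068546, minus strand: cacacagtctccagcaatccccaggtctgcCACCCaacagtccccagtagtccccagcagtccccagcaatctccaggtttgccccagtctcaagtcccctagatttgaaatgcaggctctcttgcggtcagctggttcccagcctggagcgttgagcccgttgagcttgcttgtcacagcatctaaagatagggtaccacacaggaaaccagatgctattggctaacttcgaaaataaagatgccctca

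The Cxcr4 window held 1 KLF match and was the richest of these 4 in G and C (61.2%). The Cxcr2 window held 1 PU.1 and 1 KLF match, the Cx3cr1 window 1 KLF match and the Ccr2 window, with 37.2% G and C, none. Of 32851 promoters of the same length, 23.3% held GAGGAA, 9.56% TTGCNNAA and 52.0% CACCC, and the median promoter had 52.4% G and C. The motifs do not overlap one another in these windows. A match is a description of letters, and a window without a match says nothing about the factor. Promoter entries were found for 7 of the 8 genes, the exception being S1pr1.

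The order of the 5 populations differed from receptor to receptor. Cxcr4 was at 182 FPKM in Ym1+ monocytes, 204 in Ym1- monocytes, 229 in naïve monocytes, 88.6 in neutrophils after LPS and 349 in naïve neutrophils. It was therefore abundant in every population, highest in naïve neutrophils and lowest in neutrophils after LPS, and each neighbour in that order was apart by more than the counting interval.

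Cxcr2 was at 13.1, 4.80 and 4.01 FPKM in Ym1+, Ym1- and naïve monocytes, and at 675 and 598 in neutrophils after LPS and in naïve neutrophils. The neutrophil libraries were far above the monocyte libraries, and Ym1- and naïve monocytes did not differ beyond counting error. Some 4.01% of the 50-base windows of Cxcr2 also occur in transcripts of other genes. Ccr2 had the opposite order, at 439, 434 and 499 FPKM in the monocyte libraries and 1.13 and 0.986 in neutrophils after LPS and naïve neutrophils. Its level in neutrophils was 0.261% of that in Ym1- monocytes after LPS and 0.198% of that in monocytes in the naïve pair. The 6 monocyte markers spread widely by the same measure. After LPS and in naïve cells, Irf8 was at 0.237% and 0.263%, Klf4 at 0.391% and 0.0833%, F13a1 at 1.66% and 0.470% and Fcgr1 at 3.38% and 2.07%. Csf1r was at 7.08% and 14.7%, and Ly6c2 at 50.8% and 42.4%. Of the windows of Ccr2, 1.91% occur in other genes.

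Cx3cr1 was at 8.38 FPKM in Ym1+ monocytes, 19.8 in Ym1- monocytes and 88.0 in naïve monocytes. In neutrophils after LPS and naïve neutrophils it was at 0.0753 and 0.111, which stand for about 2 and 4 fragments. It was thus a monocyte transcript here, with 3 levels well apart among the monocytes and no resolvable difference between the neutrophil libraries. Cx3cr1 overlaps Gm33858 on the opposite strand, and whether the counting used the strand is not stated.

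Ccr1, a receptor for CCL3, CCL5 and, in mice, CCL6 and CCL9, was at 79.7, 53.4 and 26.5 FPKM in Ym1+, Ym1- and naïve monocytes. It was at 219 in neutrophils after LPS and at 158 in naïve neutrophils. All 5 levels were apart beyond counting error, and within each cell type the naïve library was the lowest.

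S1pr4, a sphingosine 1-phosphate receptor largely restricted to blood cells, was at 22.3, 19.2 and 22.8 FPKM in Ym1+, Ym1- and naïve monocytes. It was at 79.6 and 73.3 in neutrophils after LPS and naïve neutrophils. The monocyte levels could not be ordered within counting error, since neither naïve and Ym1+ monocytes nor Ym1+ and Ym1- monocytes were apart. S1pr1 was listed at 0.101 FPKM in Ym1+ monocytes, about 3 fragments, and at 0 in Ym1- and naïve monocytes. It was at 2.01 in neutrophils after LPS and 3.34 in naïve neutrophils, from about 47 and 95 fragments, so of the sphingosine 1-phosphate receptors among the 8 S1pr4 was the more abundant in every library. Cells of lymphoid origin carry S1pr1 abundantly, and in naïve neutrophils the T cell gene Cd3d was at 6.37 against 1.42 after LPS, with Cd3e at 0 in both. The part of other cells in the S1pr1 values was not tested.

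Ccrl2, an atypical receptor that binds chemerin without signalling, was the least abundant in monocytes of the 6 chemokine receptors described here. It was at 1.75, 0.449 and 1.04 FPKM in Ym1+, Ym1- and naïve monocytes, and at 0.433 and 0.361 in neutrophils after LPS and naïve neutrophils. With the libraries sorted by level (Ym1+, naïve, then Ym1- monocytes, followed by the neutrophils), no neighbours were apart beyond counting error, with 5 to 41 fragments behind each value. Ym1+ and Ym1- monocytes, which are not neighbours in that order, were apart.

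**Figure D1:**
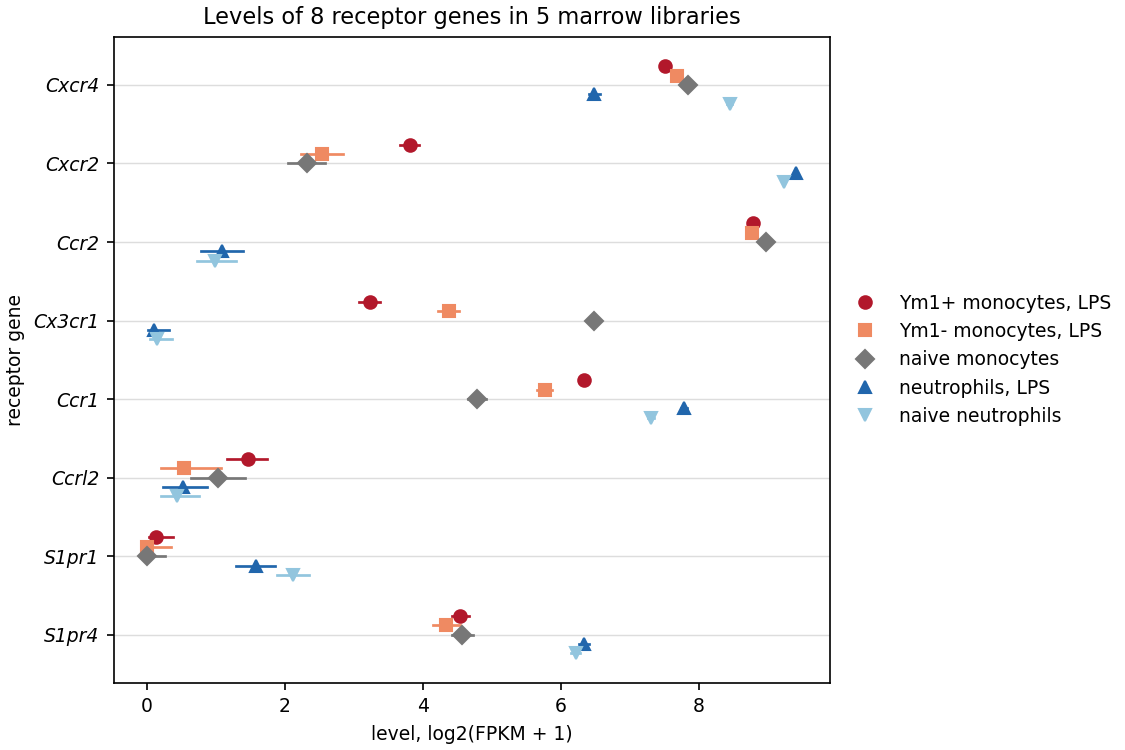
Levels of the 8 receptor genes as log2(FPKM + 1) in each library, with horizontal lines for the 95% counting interval, which covers counting error only. Cxcr2 separates neutrophils (598 and 675 FPKM) from monocytes (4.01 to 13.1), Ccr2 and Cx3cr1 separate them the other way, and Cxcr4 is high in every library but lowest in neutrophils after LPS (88.6).

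Genes with the most similar pattern over the 5 libraries were sought among 7172 genes that reach an FPKM of 10 somewhere. Likeness was the root mean square difference between log2(FPKM + 1) profiles centred on their means, a description over 5 points that share depth and scaling. The nearest to Cxcr4 were Olfr856-ps1, an olfactory receptor pseudogene, at a difference of 0.08, Lrch4-sap25 at 0.13 and Pknox1 at 0.14. The nearest to Cxcr2 were a row whose symbol is written as the date 5-Sep (0.18), Olfm4, a granule protein gene of a neutrophil subset (0.29), and AA467197 (0.37). Ccr2 was nearest to Ms4a6c (0.19), Pld4 (0.29) and S100a10 (0.33), all far above their neutrophil levels in monocytes.

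Cx3cr1 had no close neighbour, the nearest being Arl5c at 0.49, Pid1 at 0.52 and Padi2 at 0.57. Ccr1 was nearest to Glrx, a glutaredoxin gene, at 0.08, then Ckap4 at 0.16 and Fbxl5 at 0.19. S1pr4 was nearest to Cmtm6 at 0.09, Rac2, a small GTPase of leukocyte migration, at 0.10 and Prr13 at 0.10. Ccrl2 and S1pr1 did not reach an FPKM of 10 and were not matched.

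In neutrophils LPS was followed by a lower level of the retention receptor. Cxcr4 was 3.94-fold lower after LPS (counting interval 3.70 to 4.19), a log2 difference of -1.97, and of 9583 genes compared only 88 were lower by as much or more. Cxcr2 stood beside it at 675 against 598 FPKM, a difference of 0.17. Ccr1 differed by 0.47, from 158 to 219 FPKM, and S1pr4 by 0.12. When each library was rescaled to a common sum (TPM), the differences came to 0.05 for Cxcr2, 0.34 for Ccr1 and -0.00 for S1pr4.

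S1pr1 was 1.66-fold lower on the FPKM scale (1.17 to 2.44), a log2 difference of -0.53 that is not called. Ccr2, near 1 FPKM in both, differed by 0.10. Cx3cr1 and Ccrl2 did not reach an FPKM of 1 in either neutrophil library.

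Of the 6 receptors that passed the filter, 0 were called higher and 1, Cxcr4, was called lower. Over all genes 8.96% were called higher and 5.35% lower, and the median difference was 0.11 for the 6 receptors and 0.07 for all genes. With TPM the calls over all genes were 801 higher and 766 lower, against 859 and 513 on the deposited scale, and the difference of Cxcr4 was then -2.09. Its size lies just under 4-fold, so it is not called at a 4-fold threshold.

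Other measures also differed between the neutrophil libraries, not all in the direction of Cxcr4. Retnlg was at 12795 FPKM in naïve neutrophils and 5157 after LPS, while the 8 neutrophil markers found summed to 291817 and 281495. Mmp8, Ngp, Camp and S100a9 were also lower after LPS, and Cd177, Ltf and S100a8 were higher. The platelet gene Pf4 was at 16.9 and 0.922, and the 3 platelet markers summed to 23.5 and 2.41. Cxcr4 is also carried by B cells, whose 5 markers summed to 1.77 and 0.907, with Ms4a1 at 0 and 0.0637. The T cell markers summed to 6.37 and 1.56, the eosinophil markers to 16.0 and 0.914, the erythroid markers to 25.0 and 7.13, and the macrophage markers to 31.2 and 15.3. The 4 stem and progenitor markers summed to 7.44 and 3.14, with Kit at 7.00 and 2.57 and Cd34 at 0.260 and 0.537. The monocyte markers went the other way, summing to 1415 and 1637, as did the endothelial markers, at 3.33 and 8.51. Cxcr4 itself was 260.2 FPKM lower, and the part of these other transcripts in that difference was not tested.

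In Ym1- monocytes LPS was followed by a lower Cx3cr1 and by a Cxcr4 and a Ccr2 close to their naïve levels. Cx3cr1 was 4.45-fold lower than in naïve monocytes (3.95 to 5.03), a log2 difference of -2.10. Cxcr4 differed by -0.17 and Ccr2 by -0.20. Both differences exceed the counting intervals, which reach from 1.06 to 1.20-fold lower for Cxcr4 and from 1.11 to 1.19-fold lower for Ccr2, and whether they exceed the spread between mice cannot be known from 1 library each.

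Ccr1 was 2.02-fold higher on the FPKM scale (1.79 to 2.28) and 0.98 higher on the log2 scale with its pseudocount, which leaves it just short of a call. It is called with a pseudocount of 0.1 or with median-of-ratios scaling. Cxcr2 differed by 0.21, S1pr4 by -0.23 and Ccrl2 by -0.49, all within counting error. Of the 7 receptors that passed the filter, 0 were called higher and 1 lower, where 2.86% of 10714 genes were called higher and 4.72% lower. The median difference was -0.20 for the 7 receptors and -0.00 for all genes.

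Against the same naïve monocytes, Ym1+ monocytes had 2 receptors called higher and 1 lower of 7 that passed, where 2.59% and 4.51% of 10698 genes were called. Cx3cr1 was 10.5-fold lower (9.29 to 11.9), at a log2 difference of -3.25. Ccr1 was 3.01-fold higher (2.72 to 3.34) and Cxcr2 3.26-fold higher (2.54 to 4.27). Cxcr4 differed by -0.33, Ccr2 by -0.18, S1pr4 by -0.03 and Ccrl2 by 0.43, and the median was -0.03 for the 7 receptors and -0.06 for all genes.

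Between the gates after LPS, Cxcr2 was the receptor called higher in Ym1+ than in Ym1- monocytes and Cx3cr1 the receptor called lower, of 7 that passed. Cxcr2 was 2.72-fold higher (2.06 to 3.59), a log2 difference of 1.28, and Cx3cr1 was 2.36-fold lower (2.01 to 2.77), a difference of -1.15. Over 10489 genes 1.38% were called higher and 1.18% lower, with a median of -0.06 against 0.20 for the 7 receptors. These 3 monocyte comparisons share libraries, so they are not separate evidence for one another.

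Ccr2 was level between the gates, at a difference of 0.02 and a ratio of 1.01 (0.979 to 1.04). Cxcr4 differed by -0.16, S1pr4 by 0.20 and Ccr1 by 0.57, or 1.49-fold (1.36 to 1.63). Ccrl2 differed by 0.93, from about 41 against 5 fragments (ratio 3.91, interval 1.45 to 11.9), and is called with a pseudocount of 0.1 or with TPM.

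**Figure D2:**
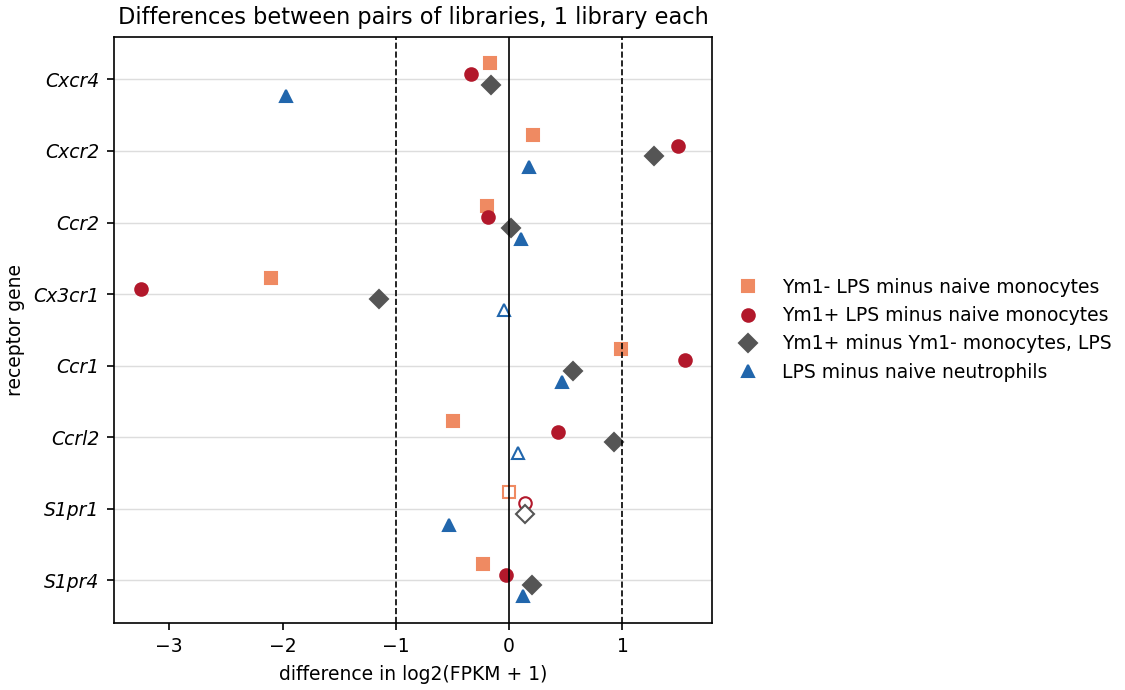
Differences in log2(FPKM + 1) of the 8 receptors between pairs of libraries, 1 library each, with dashed lines at 2-fold and open symbols where neither library reached an FPKM of 1. Cx3cr1 lies to the left in all 3 monocyte comparisons (-1.15 to -3.25), and Cxcr4 lies beyond the 2-fold line in neutrophils alone (-1.97).

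Neutrophil transcripts were higher in Ym1+ than in Ym1- monocytes, as Cxcr2 was. All 8 markers found had that direction. Between naïve and Ym1- monocytes, where Cxcr2 was at 4.01 and 4.80 FPKM, 5 of the 8 were higher in the naïve library, for example Cd177 at 113 against 6.56 and Ngp at 113 against 46.2. The 8 neutrophil markers found, led by S100a8 and S100a9, summed to 14019, 1921 and 1300 FPKM in Ym1+, Ym1- and naïve monocytes. As a share of the level in neutrophils after LPS, Cxcr2 was at 1.93% in Ym1+ and 0.711% in Ym1- monocytes. By the same measure the 8 markers ran from 0.266% (Retnlg) to 10.6% (Mmp8) in Ym1+ monocytes and from 0.0816% (Ltf) to 4.72% (Mmp8) in Ym1- monocytes. S100a8 was at 6.81% and 0.944%. The part of neutrophil RNA in the Cxcr2 difference was not tested.

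Markers of other monocytes and progenitors followed Cx3cr1 between naïve and LPS monocytes, but not all did so between the gates. Ace, a Ly6Clow monocyte gene, was at 0.609, 0.455 and 21.0 FPKM in Ym1+, Ym1- and naïve monocytes, and the 5 Ly6Clow markers summed to 129, 150 and 239. Of these, Ace, Nr4a1 and Treml4 were higher in Ym1+ than in Ym1- monocytes, unlike Cx3cr1. Spn (107 against 134) and Itgax were lower. The 4 stem and progenitor markers summed to 1.42, 7.78 and 30.5, with Cd34 at 0.972, 4.92 and 20.3. The dendritic markers summed to 0.277, 1.63 and 14.4, almost all of it Cd209a at 12.7 in naïve monocytes. All 3 lists were higher in naïve than in LPS monocytes, as Cx3cr1 was, and their part in its level was not tested. The macrophage markers went the other way, summing to 118, 60.2 and 48.8. The eosinophil markers were highest in Ym1- monocytes, summing to 6.79, 40.4 and 4.03 in Ym1+, Ym1- and naïve monocytes.

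Across cell types without LPS, 4 receptors were called higher and 2 lower in naïve neutrophils than in naïve monocytes, of 8 that passed. Over 10944 genes 10.8% were called higher and 42.7% lower, and the median was 1.12 for the 8 receptors and -0.79 for all genes. Cxcr2 was 149-fold higher (119 to 192), Ccr1 5.96-fold (5.41 to 6.59) and S1pr4 3.22-fold (2.86 to 3.64). S1pr1, listed at 0 in naïve monocytes, was the fourth. Ccr2 was 506-fold lower (345 to 751), and Cx3cr1, at 0.111 against 88.0 FPKM, was the other gene called lower.

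Cxcr4 was 1.52-fold higher in naïve neutrophils (1.45 to 1.59) as deposited, and its log2 difference of 0.60 depended on the scaling. It was 0.20 with TPM and 1.44 with median-of-ratios scaling, under which it is called higher. The median of all genes also moved, from -0.79 as deposited to -1.15 with TPM and -0.03 with median-of-ratios scaling, and the calls over all genes went from 1184 higher and 4678 lower to 2428 higher and 2634 lower with the latter. Relative to the median of all genes, the deposited difference of Cxcr4 was 1.39. Ccrl2 differed by -0.58.

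The level of the retention receptor can be set against other receptors within a library, where scaling between libraries has almost no effect. The log2 ratio of Cxcr4 to Ccr2, each plus 1 FPKM, was -1.27 for Ym1+ cells, -1.09 for Ym1- cells and -1.12 for naïve monocytes. Ccr2 was thus above Cxcr4 in all 3, at 2.42, 2.13 and 2.18 times its FPKM. After LPS the ratio changed by 0.03 in Ym1- monocytes (counting interval -0.07 to 0.13) and by -0.15 in Ym1+ monocytes (-0.23 to -0.06), and it differed by -0.18 between the gates (-0.28 to -0.08).

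In neutrophils the log2 ratio of Cxcr4 to Cxcr2 was -0.78 in the naïve library and -2.92 after LPS, a change of -2.14 (-2.23 to -2.05). Cxcr2 was 1.71 times Cxcr4 in naïve neutrophils and 7.62 times after LPS. Nearly all of the change came from Cxcr4, whose own difference was -1.97 against 0.17 for Cxcr2. In monocytes Cxcr4 exceeded Cxcr2, at log2 ratios of 3.70 (Ym1+), 5.14 (Ym1-) and 5.52 (naïve), with changes after LPS of -1.82 (-2.19 to -1.45) in Ym1+ and -0.38 (-0.88 to 0.11) in Ym1- monocytes.

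Against S1pr4, Cxcr4 was 4.76 times as high in naïve neutrophils and 1.11 times after LPS. In monocytes it was 8.14, 10.6 and 10.1 times as high in Ym1+, Ym1- and naïve cells. Against Ccr1 it was 2.21 times as high in naïve neutrophils and 0.404 times after LPS, so that Ccr1 passed it. In monocytes Cxcr4 stayed above Ccr1, at 2.28, 3.81 and 8.65 times its FPKM in Ym1+, Ym1- and naïve cells.

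**Figure D3:**
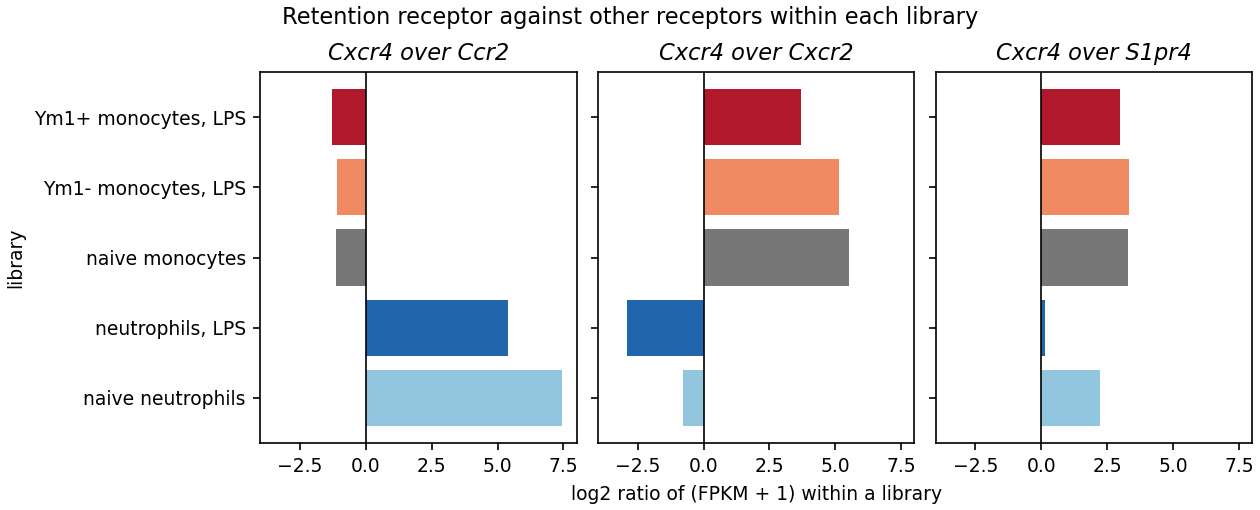
Log2 ratio of (FPKM + 1) of Cxcr4 to Ccr2, Cxcr2 and S1pr4 within each library, drawn as bars from 0, 1 library per bar. The Ccr2 ratio is nearly level over the monocytes (-1.27 to -1.09), and the Cxcr2 ratio of neutrophils goes from -0.78 to -2.92 with LPS.

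Around these receptors, 74 other genes of the pathway were listed in 8 groups by role, and all 74 were in the tables. Between 41 and 43 passed the filter in each comparison. In neutrophils after LPS 5 of 41 were called higher and 4 lower, with a median of -0.15, where 8.96% and 5.35% of all genes were called. In Ym1- monocytes against naïve ones 4 of 43 were called higher and 6 lower (median -0.26), where all genes had 2.86% and 4.72%. In Ym1+ monocytes against naïve ones 3 of 42 were higher and 6 lower (median -0.24), where all genes had 2.59% and 4.51%. Between the gates 0 of 41 were higher and 1 lower (median 0.16), where all genes had 1.38% and 1.18%, the lower gene being Rarres2, which encodes chemerin. Between naïve neutrophils and naïve monocytes 10 of 43 were higher and 12 lower (median 0.16), where all genes had 10.8% and 42.7% and a median of -0.79.

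Of 14 other chemokine receptors, 2 passed the filter in each LPS comparison of monocytes and 3 in that of neutrophils. Cxcr1, the other receptor of the CXCR2 kind, was listed at 0 in all monocytes and at 7.57 and 3.09 in neutrophils after LPS and naïve neutrophils, a difference of 1.07. Ccr3, an eosinophil receptor, was at 1.44 in naïve neutrophils and 0.0769 after LPS, the direction of the eosinophil markers in that pair. In Ym1- monocytes, where those markers were highest (40.4), Ccr3 was at 0.0696. The part of eosinophils in the Ccr3 level was not tested. Cxcr5 was at 0 in naïve neutrophils and 1.42 after LPS.

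Of 5 atypical receptors, Cmklr1, the signalling chemerin receptor listed with them, was at 8.37, 5.27 and 0.974 FPKM in Ym1+, Ym1- and naïve monocytes. It was called higher after LPS in both gates, at 2.25 and 1.67. Darc and Ccbp2, decoys for inflammatory chemokines, were listed at 0 in all 5 libraries, and Ccrl1 did not exceed 0.0515.

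Of the 3 remaining sphingosine 1-phosphate receptors, S1pr5 was called lower after LPS in both monocyte gates. It was at 0.917, 1.31 and 12.6 FPKM in Ym1+, Ym1- and naïve monocytes, differences of -2.83 and -2.56 from the naïve level, and was listed at 0 in both neutrophil libraries. NK cells and Ly6Clow monocytes are known to carry S1pr5. The NK markers summed to 0.452, 0.323 and 0 in Ym1+, Ym1- and naïve monocytes, the Ly6Clow markers are given above, and the part of either cell type in the S1pr5 level was not tested. S1pr2 was at 8.50 to 10.2 in monocytes and 3.53 to 5.88 in neutrophils, and was called in no LPS comparison. S1pr3 was at 0.156, 0.599 and 1.53 in Ym1+, Ym1- and naïve monocytes and was called lower in Ym1+ cells (-1.13).

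Of 8 genes of sphingosine 1-phosphate metabolism, 4 passed the filter in neutrophils after LPS. Of these 4, 0 were called, where 8.96% of all genes were called higher and 5.35% lower. Sgpl1, the lyase that breaks the lipid down, was at 36.1 to 47.2 FPKM in monocytes and 25.0 to 33.6 in neutrophils. Sgpp1, a phosphatase, was at 35.6 to 48.1 and 16.4 to 23.1, and Sphk2, a kinase that makes the lipid, at 16.0 to 18.0 and 15.5 to 21.1. Ppap2a was the only gene of this list called in an LPS or gate comparison, at 1.27 in Ym1- against 0 in naïve monocytes.

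Of 16 ligands of these receptors, 7 passed the filter in each LPS comparison. Those called in neutrophils after LPS were Ccl5, Ccl9 and Cxcl2, higher, and Ccl6 and Ppbp, lower. Near the filter, Ccl5 was at 1.08 in neutrophils after LPS against 0 in naïve ones, and Cxcl2 at 1.88 against 0.112. Ccl5 was also called higher in Ym1+ and Ym1- monocytes, at 9.63 and 4.57 against 0.465 in naïve ones. Cxcl12 was at 0.565 FPKM or less in every library, and Cxcl1, Ccl7, Ccl12 and Cx3cl1 were listed at 0 in all 5. Ccl6, a CCR1 ligand, was at 170 and 123 in Ym1+ and Ym1- monocytes against 423 in naïve ones, and at 240 in neutrophils after LPS against 881 in naïve ones. It was called lower after LPS in all 3 comparisons with a naïve library (-1.31, -1.78 and -1.87), while its receptor gene Ccr1 was at a higher level in each. Ccl9 was at 94.1, 125 and 134 in Ym1+, Ym1- and naïve monocytes and at 3.43 and 0.942 in neutrophils after LPS and naïve neutrophils. Ccl3 was at 7.82 to 11.2 in monocytes. Ppbp, a platelet chemokine that binds CXCR2, was at 0.539 in neutrophils after LPS and 27.3 in naïve ones, the direction of Pf4 there. In Ym1+, Ym1- and naïve monocytes Ppbp was at 0.436, 0.488 and 6.94, and Pf4 at 3.48, 0 and 3.56. Pf4 thus did not follow Ppbp in Ym1+ cells, and the part of platelets in the Ppbp level was not tested.

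Of 9 signalling genes, all of which passed the filter, 0 were called in any LPS or gate comparison. In those comparisons 1.18% to 8.96% of all genes were called in a given direction. Gnai2, the G protein subunit these receptors use, was at 626 to 701 FPKM in monocytes and 891 to 1029 in neutrophils, with Gnb2 at 342 to 410 and Gnb1 at 88.6 to 129 over all 5. Rac2 was at 197 to 254 in monocytes and 812 to 883 in neutrophils.

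Of 12 genes of receptor desensitisation, 11 passed the filter in each LPS comparison, where 4.51% to 5.35% of all genes were called lower. In each, 1 of the 11 was called lower. In neutrophils it was Rgs2, a regulator that speeds G protein shut-off, at 34.1 against 107 FPKM (-1.62), and in Ym1- monocytes Grk5, a receptor kinase, at 11.4 against 26.0 (-1.13). In Ym1+ monocytes it was Adrbk2, the kinase GRK3, at 7.41 against 17.0 (-1.09). These 3 were named after their values were seen, as were Rarres2, Ccl5, Cxcl2 and the ligands at or near 0. Arrb2, an arrestin that ends receptor signalling, was at 62.9 to 75.1 in monocytes and 413 and 472 in neutrophils after LPS and naïve neutrophils. Adrbk1, the kinase GRK2, was at 170 to 203 and 241 to 284, Rgs19 at 98.1 to 122 and 190 to 197, and Grk6 at 80.3 to 97.3 and 129 to 166. None of these 4 was called after LPS.

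Of 7 genes known to set receptor levels, 6 passed the filter in neutrophils after LPS. Of these 6, 0 were called, where 8.96% of all genes were called higher and 5.35% lower. Csf3r encodes the receptor through which G-CSF is known to lower Cxcr4. It was at 237 FPKM after LPS and 464 in naïve neutrophils, a difference of -0.97 just short of a call. Stat3, which acts below that receptor, was at 116 and 70.7 (0.70), and Cebpe, a factor of granulocyte maturation, at 170 and 215 (-0.34). The part of these genes in the Cxcr4 difference was not tested. Klf2, which drives S1pr1 in lymphocytes, was at 83.0 and 85.4. In monocytes Klf2 was at 30.2, 24.1 and 60.2 in Ym1+, Ym1- and naïve cells, and Csf3r at 43.5, 30.2 and 66.1. Both were called lower in Ym1- than in naïve cells, Klf2 at -1.28 and Csf3r at -1.10. In Ym1+ cells the differences were -0.97 for Klf2, just short of a call, and -0.59 for Csf3r.

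**Figure D4:**
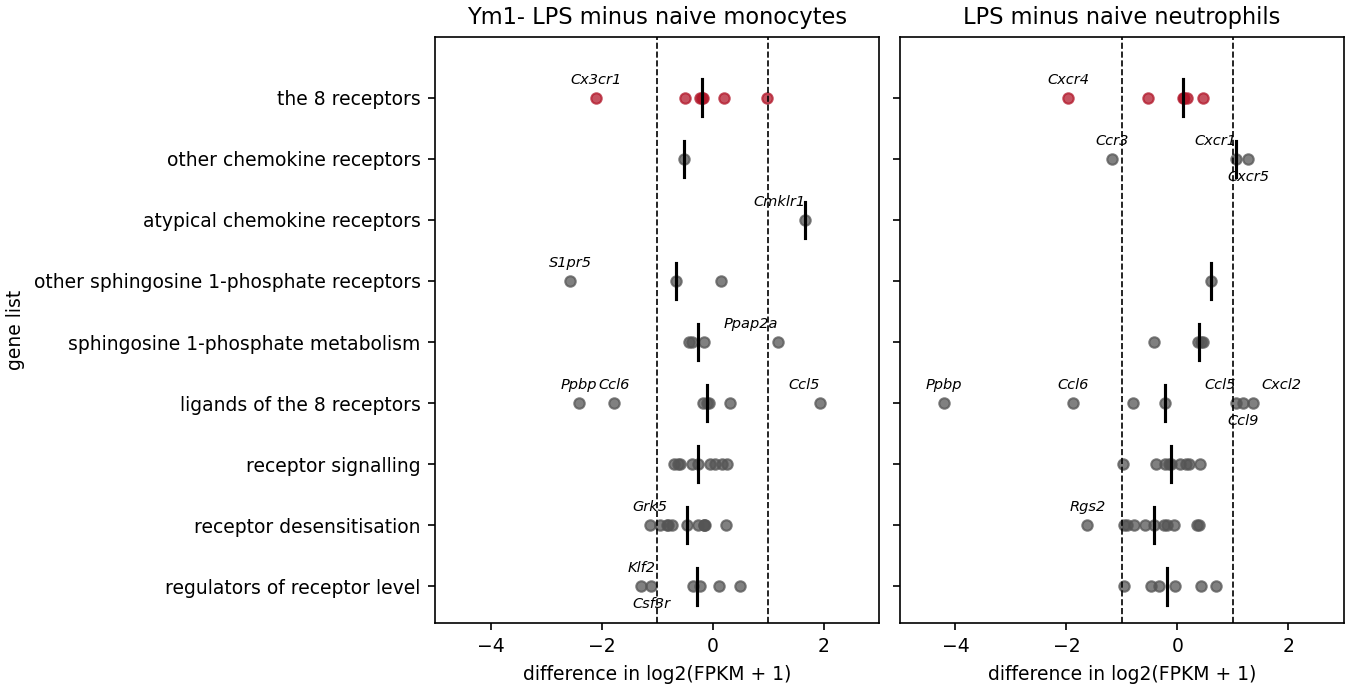
Differences in log2(FPKM + 1) after LPS in Ym1- monocytes and in neutrophils, 1 library per condition, for genes that reach an FPKM of 1 in 1 or both libraries. Each point is a gene, bars are medians of the genes drawn, dashed lines mark 2-fold and names mark genes beyond them, with 1 gene of the second row left out. Cx3cr1 and S1pr5 lie far left in monocytes (-2.10 and -2.56) and Cxcr4 lies left in neutrophils (-1.97), and the receptor signalling genes lie within the lines in both.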

How the data were processed

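RNA from 5 sorted bone marrow populations was prepared with a strand-specific kit, 1 library per population. The authors deposited FPKM values per gene for each library. TopHat2 2.0.8 and Cufflinks 2.1.1 are listed with mm9 in the submitters' processing notes. Their options and the annotation were not found in the labels or the methods. FPKM is relative to mapped fragments, so a few very abundant transcripts, as in neutrophils, can lower all other values.

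Each sample was placed in its group by its title, checked against the treatment entry. From the deposited FPKM, log2(FPKM + 1) differences were computed for 5 pairs of libraries with Python 3.11.15, numpy 2.4.6, pandas 2.3.3 and scipy 1.17.1, with a minimum FPKM of 1 in either library and a 2-fold threshold. With 1 library per group no test was run. Relative depth was the most frequent ratio between low FPKM values of a library and the Ym1+ library, taken as 1 fragment in both. The value of 1 fragment in the Ym1+ library was the most frequent low product of FPKM and GENCODE transcript length (GRCm38). Fragments were estimated from that value, the relative depth and those lengths. 95% intervals are exact Poisson intervals for a level and exact binomial (Clopper-Pearson) intervals for a ratio of 2 libraries, while those for a change in the ratio of 2 genes use a normal approximation on the log scale. Scripts were tested on simulated data.

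All 8 receptors were described in every library. Of each list of pathway genes the 4 with the highest maximum FPKM were named, together with the 3 genes of most similar pattern for each receptor reaching an FPKM of 10. The members and the lists were chosen with earlier results of these data known. Alternatives were a pseudocount of 0.1, a minimum FPKM of 5 or none, TPM, median-of-ratios scaling and a 4-fold threshold. Some genes of the lists are not reported here. Lung libraries of the study were not analysed here.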

Additional observations from a re-analysis of the deposited data

How the results depend on the processing

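No paired analysis was possible because each group has 1 library, and for the same reason no library could be left out. For the 8 receptors, no called difference changed direction under the alternatives run. For the other pathway genes only counts were recomputed. The ratios of Cxcr4 to Ccr2 and Cxcr2 stayed within their counting intervals. In what follows counts are of genes called. With a pseudocount of 0.1, receptors higher in Ym1+ than Ym1- monocytes went from 1 to 2, receptors in Ym1- against naïve monocytes to 1 higher and 2 lower, and other pathway genes between the gates to 2 higher and 2 lower. With a minimum FPKM of 5, other pathway genes higher after LPS went to 2 in Ym1- monocytes and 1 in neutrophils. With TPM, 2 receptors and 2 other pathway genes were higher in Ym1+ than Ym1- monocytes, and 9 other pathway genes were lower in neutrophils after LPS. With median-of-ratios scaling, 1 receptor was higher in Ym1- than naïve monocytes, 1 other pathway gene was higher in Ym1+ than Ym1- monocytes, and 21 were higher in naïve neutrophils than naïve monocytes. At a 4-fold threshold 0 receptors were called between the gates in either direction, 0 higher in Ym1+ than naïve monocytes and 0 lower in neutrophils after LPS. Other pathway genes at 4-fold were 0 lower between the gates, 0 higher and 2 lower in Ym1- against naïve monocytes, 2 lower in Ym1+ against naïve monocytes, 0 higher and 1 lower in neutrophils after LPS, and 5 higher and 5 lower in naïve neutrophils against naïve monocytes.

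Counts over all genes also moved by over 1.5 times. A pseudocount of 0.1 gave 264 higher and 297 lower between the gates (145 and 124 as reported), 487 and 808 in Ym1- against naïve monocytes (306 and 506), 820 lower in Ym1+ against naïve monocytes (483) and 860 lower in neutrophils after LPS (513). A minimum FPKM of 5 left 96 higher and 71 lower between the gates. TPM gave 228 and 197 there, and 785 and 732 lower in Ym1- and Ym1+ against naïve monocytes. Median-of-ratios scaling gave 80 lower between the gates. At 4-fold the counts higher and lower were 40 and 19 between the gates, 36 and 64 in Ym1- and 78 and 76 in Ym1+ against naïve monocytes, 158 and 82 in neutrophils after LPS, and 480 and 1783 in naïve neutrophils against naïve monocytes. The cause was not tested. Depth limits Ccrl2, S1pr1 and, in neutrophils, Ccr2 and Cx3cr1, which rest on 0 to 95 fragments each. It also limits Cxcr2 in Ym1- and naïve monocytes, which rests on about 63 and 73 fragments.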
